A study of Mus musculus with 12 samples.

Results

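Of the 12 libraries of the series, 6 compare apoTf with PBS in bone marrow Pro-E of β-thalassemic mice, 3 libraries per group, chosen by the library titles. All 6 come from th1/th1 mice, given as C57BL6 in the labels and as of mixed background in the study's methods, which lack an adult β-globin gene on both copies and model β-thalassemia intermedia. The labels give an age of 5 months, while the study's methods give a younger age for all its experiments. Treated mice received 10 mg of human apoTf into the peritoneum (400 mg/kg per day) for 20 days, control mice an equal volume of PBS, and cells were taken 3 days after the last injection. Each library pooled Pro-E of 2–3 mice, so the spread between libraries is that between pools. The labels leave 2 points unclear. The genotype tag of every library is the opposite of its title, and one protocol describes a phlebotomy that may or may not apply to these mice. Hbb-b1, the symbol of the deleted gene, was at 133, 175 and 149 FPKM with PBS and at 97.5, 178 and 204 FPKM with apoTf, against group means of 1426 and 2166 FPKM in the WT libraries given PBS and apoTf, so the titles and not the tags match the deletion. What produced the remaining reads was not tested. By the study's methods only reads aligning to a single place were kept, so near-identical β-globin copies lose reads. The comparison asks which transcripts of thalassemic Pro-E were altered after treatment.

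ApoTf is transferrin without bound iron. Pro-E are the earliest morphologically recognisable red cell precursors and depend on erythropoietin (Epo), which signals through its receptor, the kinase JAK2 and the transcription factor STAT5 to keep the cells alive. In β-thalassemia Epo is high and erythropoiesis is ineffective, since excess α-globin harms the precursors. Proliferating precursors also need cholesterol for their membranes.

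The values are FPKM, reads scaled to the length of a gene's exons and to the total of reads, as deposited. The totals of reads behind the 6 libraries, read from the steps between low FPKM values, were 42500000 to 46400000, so 1 read per kilobase equals 0.0216 to 0.0236 FPKM. Of the 8 Pro-E markers, all were detected, and their summed level was 817 to 1089 FPKM in the PBS and 935 to 1093 FPKM in the apoTf libraries. Markers of B cells, T and NK cells, mast cells and endothelium each summed to under 0.5 FPKM in every library. The 12 neutrophil markers summed to 0.888 to 7.46 FPKM with PBS and 1.99 to 12.4 FPKM with apoTf, with 9 of the 12 under 1 FPKM in every library. The 12 megakaryocyte markers summed to 10.3 to 12.4 and 12.7 to 16.8 FPKM, of which Gp6 was at 0 in all 6 libraries and Gp9 was 5.43 to 6.87 with PBS and 7.19 to 10.5 with apoTf (log2 difference 0.50, limma adjusted p = 0.52). Ptprc, the common leukocyte antigen, was 1.48 to 2.10 FPKM with PBS and 1.87 to 3.00 with apoTf. Macrophage markers summed to 1.96 to 2.72 FPKM, monocyte markers to 0.265 to 1.36 FPKM and dendritic cell markers to at most 16.1 FPKM over the 6 libraries. The part of these cells in the results was not tested. PBS replicate 3 stood somewhat apart, with a median Spearman rho across genes of 0.982 with the other 5 libraries against 0.988 to 0.99 for the rest, and with the ribosomal RNA precursor Rn45s at 6116 FPKM. Among the WT libraries, used only to compare genotypes, PBS replicate 1 stood far apart, with a median rho of 0.867 with the other 11 libraries and 2597 genes over 2-fold from its group. In a bulk sample, fewer cells of a type and less RNA per cell cannot be told apart.

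Of the 24453 genes listed, 9410 reached 1 FPKM in at least 3 of the 6 libraries and were tested, and 7652 were at 0 in all 6. ApoTf lowered 5 genes at an adjusted p under 0.05 (0.0531% of those tested) and raised 0 (0%), by limma on log2(FPKM + 0.5) with Benjamini-Hochberg adjustment over all 9410 genes. At an unadjusted p under 0.05 limma gave 167 lower and 282 higher genes, 4.77% of those tested. Without any group difference that threshold admits a share of about 0.05. Groups of 3 and 3 libraries then fail to overlap in a share of 0.1, both directions together. The groups did not overlap in 270 genes lower after apoTf (2.87%) and in 630 higher (6.7%). After median-ratio scaling of the libraries these counts became 563 (5.98%) and 504 (5.36%), so the excess of higher over lower genes depends on the scaling, while the median log2 fold change of all genes moved only from 0.027 to 0.005. Log2 fold changes are on the scale of FPKM + 0.5 and understate changes of low genes.

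**Figure D1:**
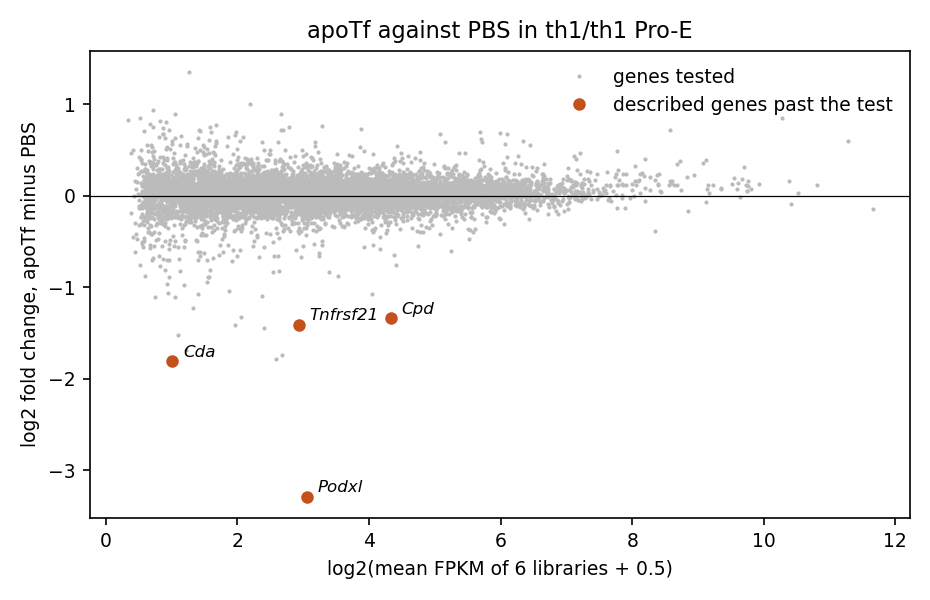
Log2 fold change of apoTf against PBS in th1/th1 Pro-E (y axis) by log2 of the mean FPKM of the 6 libraries plus 0.5 (x axis), 1 point for each of 9407 genes tested. The 4 genes described as past the test (orange) lie between −3.29 and −1.34, all below 0.

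The 4 genes described here encode surface and secretory-pathway proteins and an enzyme of nucleotide salvage. Podxl encodes podocalyxin, a sialomucin of the cell surface, and lies on chromosome 6 of GRCm38 (chr6:31519488-31563981, minus strand). With PBS it stood at 10.8, 23.6 and 9.86 FPKM in replicates 1 to 3, and with apoTf at 1.56, 0.799 and 0.62 FPKM. Every apoTf library lay far below every PBS library, and the group means of 14.7 ± 7.67 and 0.994 ± 0.50 FPKM (SD, n = 3 libraries) differed 14.8-fold. On the log2 scale this was −3.29 (SE 0.32), with an adjusted p of 0.0147 by limma.

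Tnfrsf21, which encodes death receptor 6 (chr17:43016555-43089189, plus strand), was at 10.6, 13.2 and 8.29 FPKM with PBS and at 4.32, 3.24 and 3.40 FPKM with apoTf. The lowest PBS library was well above the highest apoTf library. Treatment shifted it by −1.41 on the log2 scale (SE 0.17), with an adjusted p of 0.0216 by limma. Cpd, the gene of carboxypeptidase D, which trims basic residues from the ends of proteins in the secretory pathway (chr11:76778424-76847018, minus strand), was at 27.1, 35.3 and 22.8 FPKM with PBS and at 13.3, 10.0 and 9.31 FPKM with apoTf. It shifted by −1.34 on the log2 scale (SE 0.17), with an adjusted p of 0.0341 by limma and without overlap between the groups. After median-ratio scaling or quantile normalization neither gene passed, with adjusted p of 0.058 and 0.0611 for Tnfrsf21 and 0.0648 and 0.063 for Cpd by limma. Cpd also missed the threshold without the trend (adjusted p = 0.0756) and in the fit of all 12 libraries (adjusted p = 0.45).

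Cda encodes cytidine deaminase, an enzyme of pyrimidine salvage (chr4:138338424-138367992, minus strand). It was at 1.75, 2.95 and 3.26 FPKM with PBS and at 0.347, 0.344 and 0.453 FPKM with apoTf, which is −1.81 on the log2 scale (SE 0.20), with an adjusted p of 0.0216 by limma. Cda reached 1 FPKM in the PBS group only, as did 12 genes in all, so the filter itself favoured a gene that is lower after apoTf. None of the 4 genes shares an annotated exon with another gene.

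**Figure D2:**
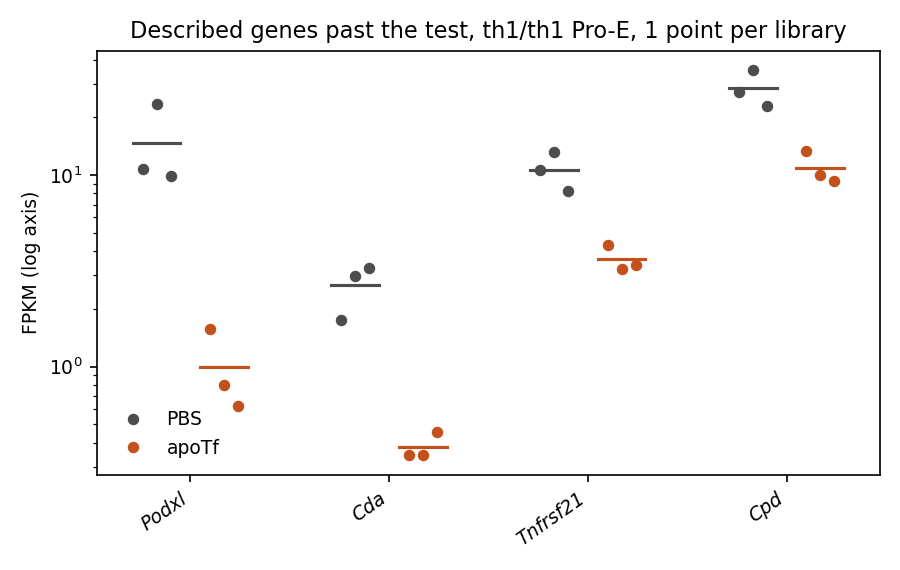
FPKM on a log axis of the 4 described genes past the test, 1 point per library with a line at each group mean (grey, PBS; orange, apoTf; 3 libraries each). In every gene the 3 apoTf points lie below the 3 PBS points, and Podxl has the widest gap, from 9.86 down to 1.56 FPKM.

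The number of genes lower after apoTf rested on single libraries. It was 1 without PBS replicate 1, without PBS replicate 2 or without apoTf replicate 2, where the 1 gene was Podxl, and 0 without apoTf replicate 3. Without PBS replicate 3, 12 genes were lower and 2 higher, and without apoTf replicate 1, 10 were lower. Cda was no longer tested once a PBS library was left out.

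To ask whether these changes belong to thalassemic mice, the apoTf effect was compared with that in WT Pro-E in a fit of all 12 libraries, in which the outlying WT library enters the spread. No gene of 9650 passed (0%), with 473 at an unadjusted p under 0.05 by limma. Without that library the count was again 0, with 471 at an unadjusted p under 0.05 and a smallest adjusted p of 0.086. Podxl came nearest, with a difference between genotypes of −3.19 on the log2 scale (95% interval −4.13 to −2.26, adjusted p = 0.0821 by limma), and passed only without PBS replicate 2 of the thalassemic mice (adjusted p = 0.0355). In WT mice Podxl was at 0.348 FPKM with PBS and 0.292 with apoTf, and Cda at 0.111 and 0.275 FPKM. These means lie below the pseudocount of 0.5, so both genes had little room to fall in WT mice. For Cda the difference was −2.12 (95% interval −2.84 to −1.41, adjusted p = 0.152), and for Tnfrsf21 it was −1.35 (adjusted p = 0.442 by limma). For Cpd the difference was −1.83 (95% interval −2.71 to −0.95, adjusted p = 0.744). One gene, Fam124a, passed when no filter on low values was applied. None of these genes is therefore shown to respond differently in the 2 genotypes.

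Genes of the Epo response held the largest single change. Of 20 listed genes 13 were tested, 1 passed (Podxl), and in 6 (46.2%, against 2.87% of all genes) every apoTf library lay below every PBS library. One of the 6, Cish, reached 1 FPKM in the PBS group only, where it is high, so the filter favoured it. The kinase gene Jak2 lay above (7.69%, against 6.7%). The list was compiled with results of these data known. Fam132b, which encodes erythroferrone, the erythroid hormone that suppresses hepcidin, was at 8.82, 13.3 and 4.89 FPKM with PBS and at 2.30, 1.72 and 2.17 with apoTf (log2 difference −1.79, SE 0.28, adjusted p = 0.132 by limma). Plek2, the gene of the actin-associated protein pleckstrin-2, was at 9.36, 14.8 and 4.58 FPKM and at 1.98, 2.36 and 2.38 FPKM (log2 difference −1.74, SE 0.32, adjusted p = 0.176 by limma). In both genes PBS replicate 3 was the lowest of its group.

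Osm, which encodes the cytokine oncostatin M, was at 5.55, 6.73 and 3.27 FPKM with PBS and at 2.06, 1.29 and 1.39 with apoTf (log2 difference −1.42, adjusted p = 0.167 by limma). Cish, a STAT5-induced inhibitor of cytokine signalling, was at 3.88, 3.96 and 1.48 FPKM and at 0.388, 0.582 and 0.695 FPKM (log2 difference −1.69, adjusted p = 0.167). Pim1, a survival kinase gene, was at 26.2, 27.96 and 12.5 FPKM and at 8.73, 10.99 and 9.35 FPKM (log2 difference −1.08, adjusted p = 0.284). None of these genes passed the test, and PBS replicate 3 was again the lowest of its group in each. Leaving out the library that was lowest of its group in these genes favours them. Without it Fam132b, Plek2, Osm and Pim1 passed, among 14 genes called of 9316 tested. The adjusted p was 0.00386 for both Fam132b and Plek2 and 0.0122 for Osm by limma. Genes at an unadjusted p under 0.05 by limma rose from 449 to 923 in that fit. Cish then fell below the filter and was not tested.

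The receptor and its signal carriers did not follow. Epor, the Epo receptor gene, was at 35.3, 35.1 and 48.5 FPKM with PBS and at 43.8, 44.4 and 46.3 with apoTf (log2 difference 0.19, adjusted p = 1 by limma). Stat5a and Stat5b each differed by 0.08 on the log2 scale, and Jak2 was at 24.1 to 25.3 FPKM with PBS and 29.7 to 31.9 FPKM with apoTf (log2 difference 0.31, adjusted p = 0.41). Bcl2l1, the anti-apoptotic BCL-XL gene, overlapped between the groups (log2 difference −0.08). The feedback genes Socs2 and Socs3 stayed below 1 FPKM and were not tested. Socs2 was at 0.199 to 0.432 FPKM with PBS and at 0.021 to 0.079 FPKM with apoTf. It lay lower without overlap, and its lowest value is near 1 read per kilobase.

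**Figure D3:**
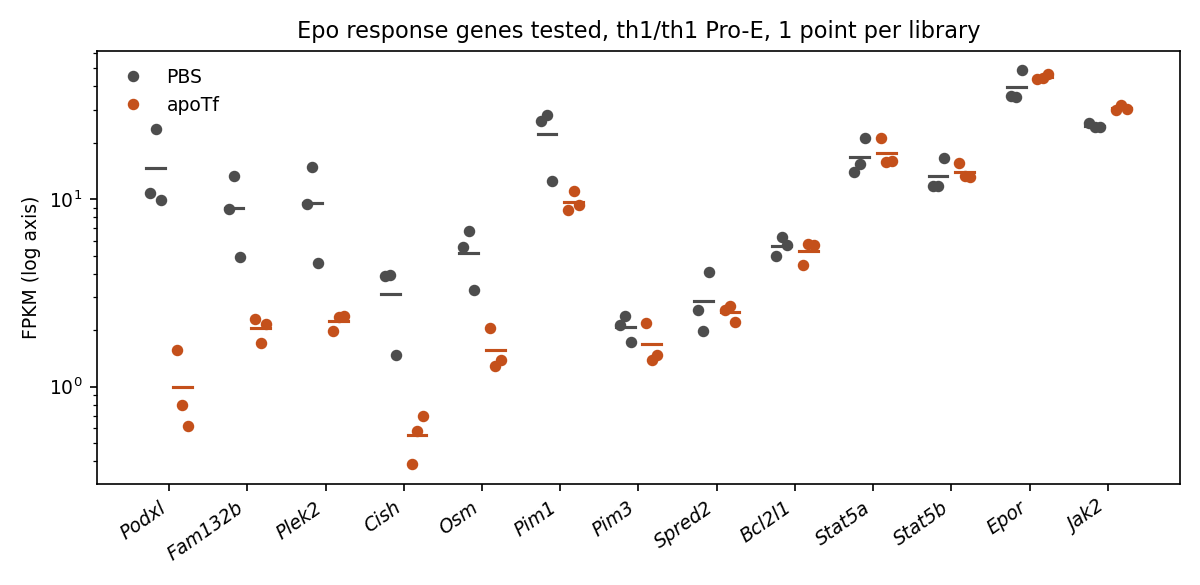
FPKM on a log axis of the 13 Epo response genes tested, ordered by log2 fold change, 1 point per library with a line at each group mean (grey, PBS; orange, apoTf). In the 6 genes on the left the groups do not overlap, and from Pim3 to Epor they do.

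Cholesterol genes held many small differences in 1 direction. Of 20 genes described 18 were tested, 0 passed by limma, 7 were lower at an unadjusted p under 0.05, and 9 lay lower in every apoTf library than in every PBS library (50%, against 2.87% of all genes). One, the sterol reductase gene Tm7sf2, lay above (5.56%, against 6.7%). The median log2 fold change of the list was −0.21, against 0.03 over all genes tested. Left-out libraries moved it between −0.24 and −0.18, and the count of lower genes between 9 and 11, while the share over all genes rose to between 3.46% and 13.2%, the highest without apoTf replicate 1. The list's genes were chosen with earlier results known, and Mvd (1.02 to 1.05 FPKM with PBS, 0.51 to 0.863 with apoTf) reached 1 FPKM in the PBS group only.

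Single genes differed by little. Msmo1, a sterol C4 demethylase gene, was at 5.21, 5.06 and 5.14 FPKM with PBS and at 4.23, 3.42 and 3.48 FPKM with apoTf (log2 difference −0.43, SE 0.11, adjusted p = 0.394 by limma). Insig1, which holds the sterol sensor in the endoplasmic reticulum, was at 3.93, 4.38 and 3.84 FPKM and at 3.17, 2.99 and 3.02 FPKM (log2 difference −0.35, adjusted p = 0.595). Srebf2, which encodes the regulator of the pathway, overlapped between the groups (log2 difference −0.12, adjusted p = 1). None of these 3 genes passed the test. The difference between genotypes did not pass for Msmo1 or Insig1 (adjusted p = 0.764 for both by limma).

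**Figure D4:**
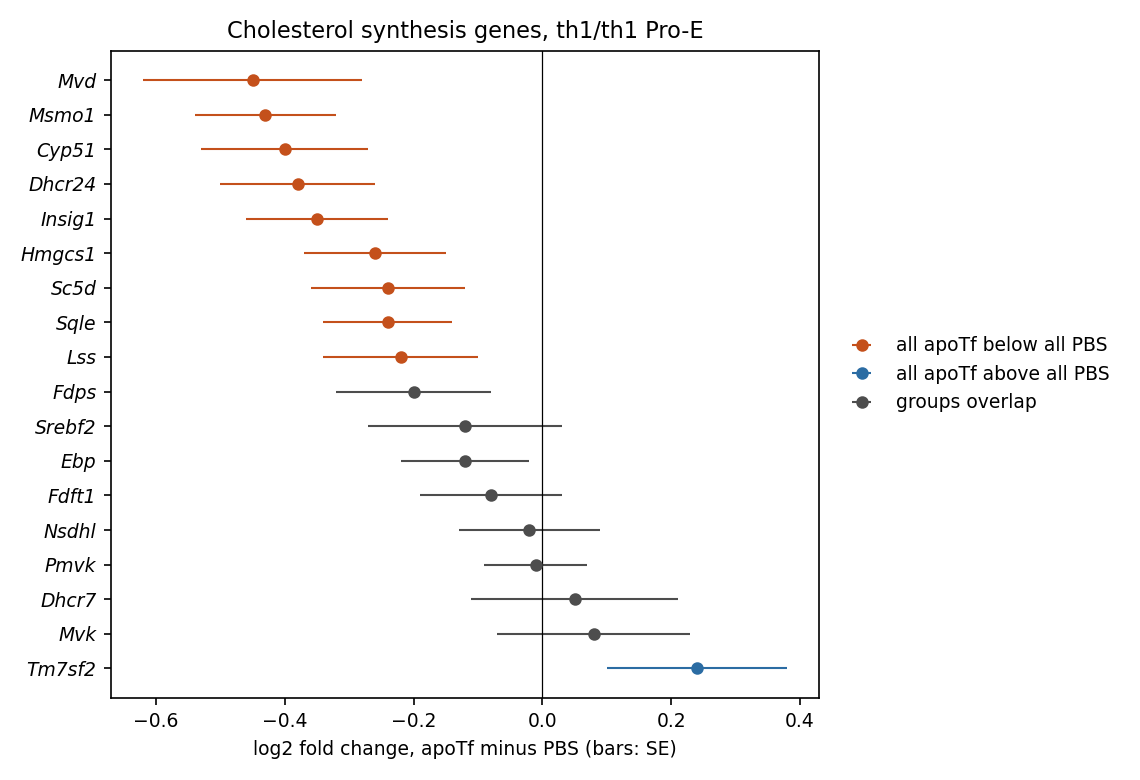
Log2 fold change of apoTf against PBS with its standard error for the 18 cholesterol genes described, ordered by size. The 9 genes that lie lower without overlap stand between −0.45 and −0.22, and Tm7sf2 lies at 0.24.

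The stretches of 250 bases before the RefSeq start of 3 cholesterol genes whose groups do not overlap are given on GRCm38.p6. The pathway's regulator is known to bind short sterol elements before gene starts. GENCODE starts Msmo1 at 64733792 and Insig1 at 28071363, inside the stretches given, so part of each is within the gene by that annotation. Capitals mark matches of TCACNCCAC on either strand.
Hmgcs1, chr13:119690101-119690350, plus strand: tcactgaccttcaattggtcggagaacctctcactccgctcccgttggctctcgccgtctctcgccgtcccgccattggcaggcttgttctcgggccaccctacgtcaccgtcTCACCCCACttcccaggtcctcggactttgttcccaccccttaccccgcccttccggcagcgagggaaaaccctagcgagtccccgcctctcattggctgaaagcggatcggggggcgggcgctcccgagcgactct
Msmo1, chr8:64733579-64733828, minus strand: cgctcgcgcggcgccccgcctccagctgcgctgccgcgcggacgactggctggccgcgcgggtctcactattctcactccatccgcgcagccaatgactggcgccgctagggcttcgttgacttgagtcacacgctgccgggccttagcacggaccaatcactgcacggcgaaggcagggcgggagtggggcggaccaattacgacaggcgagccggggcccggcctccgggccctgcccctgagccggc
Insig1, chr5:28071162-28071411, plus strand: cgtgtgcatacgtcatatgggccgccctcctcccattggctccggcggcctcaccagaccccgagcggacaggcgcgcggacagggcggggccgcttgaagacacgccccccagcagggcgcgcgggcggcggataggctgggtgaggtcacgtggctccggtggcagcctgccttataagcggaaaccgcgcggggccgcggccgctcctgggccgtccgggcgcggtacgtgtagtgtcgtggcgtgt
Hmgcs1, the gene of the synthase that opens the pathway, was at 3.37 to 3.89 FPKM with PBS and 2.81 to 3.19 FPKM with apoTf (log2 difference −0.26, adjusted p = 1 by limma). Its stretch held 1 match, which was the single match among the 7 promoters found for the 9 lower cholesterol genes, where 1.05% of all 32851 promoters of this length held one. STAT-type elements, TTCNNNGAA (7.02% of all promoters), and GATA-type elements, AGATAA on either strand (9.99%), were absent from these 7 stretches and from the 5 promoters found for 4 of the 6 lower Epo genes. With under 80% of the genes matched, a comparison of shares is void, and these matches say nothing about binding.

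The naming rule added 25 genes beyond those past the test, 10 lower and 15 higher after apoTf, and none passed. It admits only genes with separated groups and fills each direction to 15, so their separation and this split follow from it. Over all genes tested 2.87% were separated and lower and 6.7% separated and higher. Lower ones besides those above include Irs2, an adaptor of insulin signalling (7.86, 7.64 and 4.35 against 3.08, 2.62 and 2.52 FPKM, log2 difference −1.10, adjusted p = 0.176 by limma). Its exons overlap those of 9530052E02Rik on the other strand, and reads were counted on both strands. Fabp5, a fatty acid carrier, was at 5.48 to 10.2 and 1.61 to 3.52 FPKM, and Neat1, the RNA that scaffolds paraspeckles, at 11.8 to 13.6 and 5.69 to 9.30 FPKM.

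Among the higher ones, H2-T23, an MHC class Ib gene, was at 6.14, 7.14 and 7.12 FPKM with PBS and at 9.99, 10.6 and 10.5 FPKM with apoTf (log2 difference 0.58, SE 0.10, adjusted p = 0.167 by limma). Tsc22d1, a transcriptional regulator gene, was at 33.0 to 34.9 and 45.3 to 48.6 FPKM (log2 difference 0.46, adjusted p = 0.176). Bcl2l11, which encodes the death-promoting protein BIM, was at 6.07 to 7.78 and 9.69 to 10.7 FPKM (log2 difference 0.54, adjusted p = 0.237). Rpph1 and Rmrp, the RNA parts of RNase P and RNase MRP, were at 1827 to 2053 and 2771 to 3121 FPKM and at 729 to 1057 and 1359 to 2036 FPKM (log2 differences 0.60 and 0.85, adjusted p = 0.257 and 0.284). In WT Pro-E both varied widely between PBS libraries, Rpph1 from 1689 to 5446 FPKM and Rmrp from 676 to 1913 FPKM. Their log2 differences after apoTf there were −1.34 and −0.53 (adjusted p = 0.41 and 0.417 by limma).

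Several of the higher genes were histone genes, and the family was then examined as a whole, after the values were seen. Clustered histone genes are the replication-dependent copies, whose messages usually carry no poly(A) tail. Of 69, 59 were tested, 0 passed by limma, and 29 lay higher in every apoTf library (49.2%, against 6.7% of all genes) with 32 higher at an unadjusted p under 0.05. One, Hist1h1t, lay lower. Hist1h2be was at 63.8, 63.5 and 62.8 FPKM with PBS and at 90.2, 85.1 and 117 FPKM with apoTf (log2 difference 0.60, SE 0.12, adjusted p = 0.22). Its annotated exons overlap those of Gm11398 and of Hist1h1e, at 544 to 657 FPKM, on the same strand. Hist1h2bk was at 37.1 to 39.0 and at 52.1 to 82.3 FPKM. In WT Pro-E, with the outlying PBS library included, the named histone genes Hist1h2be, Hist1h2bk and Hist1h2af lay the other way. Their log2 differences after apoTf there were −0.45, −1.05 and −1.27 (adjusted p = 0.41 for each by limma). The most abundant members changed less, Hist1h1a being at 1355 to 1497 and 1381 to 1573 FPKM.

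Taken by library, the median of the 59 genes relative to the PBS mean was −0.07, −0.01 and 0.07 in the PBS libraries and 0.23, 0.18 and 0.55 on the log2 scale in the apoTf libraries, with apoTf replicate 3 highest. The family median of 0.32 was 0.20 at its lowest with one library left out, and 25 genes lay higher after median-ratio scaling (5.36% over all genes). Without PBS replicate 3, 42 lay higher (71.2%, against 21.1% of all genes), and without apoTf replicate 3, 29 (49.2%, against 15.5%). The library preparation selected poly(A) RNA, and Rpph1 and Rmrp, which are not polyadenylated either, were higher in every apoTf library. Scarna17, another small RNA, was higher as well, at 5.66 to 5.86 FPKM with PBS and 7.61 to 8.43 FPKM with apoTf. Its log2 difference was 0.43 (adjusted p = 0.284 by limma). Snora68, a small nucleolar RNA without a tail, lay the other way, at 15.6 to 19.6 FPKM with PBS and 10.8 to 12.4 FPKM with apoTf (log2 difference −0.56, adjusted p = 0.181 by limma). Whether a difference in that selection contributed was not tested. The authors kept only reads that aligned to a single place, so near-identical histone copies lose the reads that fit several of them. Their values were not taken as independent.

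**Figure D5:**
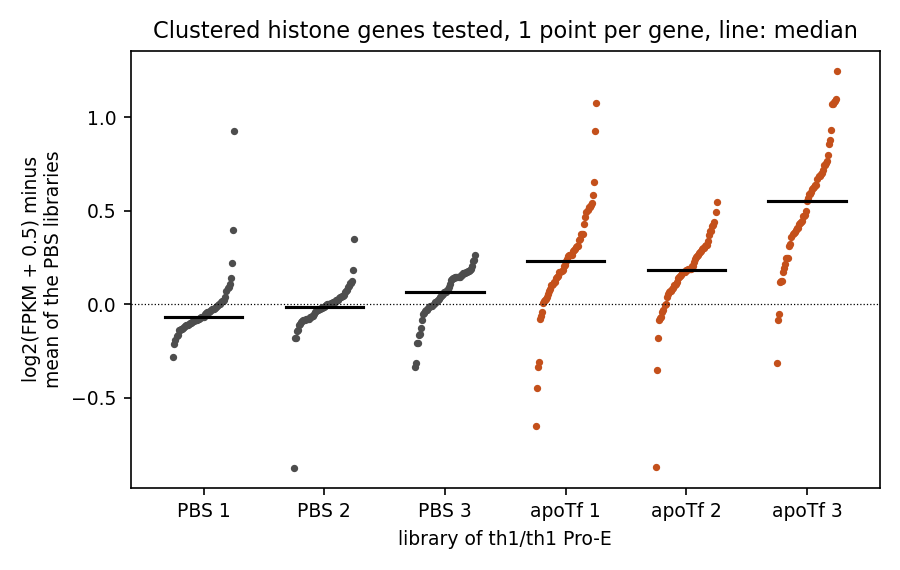
Log2(FPKM + 0.5) of the 59 clustered histone genes tested minus the mean of the 3 PBS libraries (y axis), 1 point per gene and library, with a line at each library's median. The medians are −0.07 to 0.07 in the PBS libraries and 0.18 to 0.55 in the apoTf libraries.

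Genes that define the red cell programme showed little difference. The 7 globin genes tested overlapped between the groups, with a median log2 fold change of 0.05. Hba-a1 was at 319, 402 and 369 FPKM with PBS and at 278, 470 and 505 FPKM with apoTf (log2 difference 0.16, SE 0.21, adjusted p = 1 by limma), apoTf replicate 1 being the lowest of the 6. Hba-a1 and Hba-a2, Hbb-b1 and Hbb-bs, and Hbb-b2 and Hbb-bt carry nearly the same values, and each pair is a single reading. Of the 18 iron genes tested 0 were apart in either direction as deposited (2.87% and 6.7% over all genes). After median-ratio scaling 2 lay higher (5.36% over all genes). Among the 18 were ferroportin Slc40a1 (32.2 to 40.5 and 39.6 to 42.6 FPKM, log2 difference 0.24) and ferritin heavy chain Fth1 (419 to 591 and 407 to 464 FPKM, log2 difference −0.17). Of 14 haem synthesis genes 13 had positive log2 fold changes (5597 of 9410 over all genes) and none was apart. Their median of 0.12 was no larger than the SD of the list median between libraries of a group, 0.12.

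Klf1, the erythroid transcription factor gene, was at 121 to 132 FPKM with PBS and 138 to 143 FPKM with apoTf, without overlap (log2 difference 0.16, adjusted p = 1 by limma). It was 1 of 17 erythroid regulators tested (5.88%, against 6.7% of all genes). Of 21 red cell membrane genes Icam4, a surface adhesion molecule gene, lay higher (4.76%, log2 difference 0.20, adjusted p = 1). After median-ratio scaling 0 lay higher and 1 lower (5.36% and 5.98% over all genes). Of 13 stage and adhesion genes Xpo7 lay lower (7.69%, against 2.87%, log2 difference −0.19). Among 26 mitosis genes 24 had positive log2 fold changes (5597 of 9410 over all genes), and none was apart. Their median of 0.08 was below the SD of the list median between libraries of a group, 0.12. DNA replication genes, 29 tested, had a median of 0.03.

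In the cell cycle list, Ccnd2, a D-type cyclin gene, was at 5.54, 6.31 and 10.6 FPKM with PBS and at 4.81, 3.798 and 3.05 FPKM with apoTf (log2 difference −0.83, SE 0.23, adjusted p = 0.426 by limma). Cdkn1b, which encodes the inhibitor p27, was at 6.61 to 9.09 and 10.2 to 10.4 FPKM (log2 difference 0.40, adjusted p = 0.539). In both genes the groups were separated, and neither gene passed. Of the 10 genes of the list tested, 1 was separated and lower (10%, against 2.87% of all genes). In 2 the groups were separated and higher (20%, against 6.7%), Cdkn1b among them. In the apoptosis list 1 of 16 genes passed, Tnfrsf21 (0.0531% of all genes were lower). Cflar, Casp8 and Bcl2l11 lay higher without overlap (18.8%, against 6.7% of all genes). After median-ratio scaling 2 of the list lay higher (5.36% over all genes). Fas, the best known death receptor gene, was at 0.031 FPKM or below in all 6 libraries.

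Stress and stimulus lists held few separated genes, to be read against 2.87% lower and 6.7% higher over all genes. Counts after median-ratio scaling are to be read against 5.98% lower and 5.36% higher. Of 11 immediate early genes tested, Ier3 was at 1.75 to 2.33 and 0.528 to 1.37 FPKM (log2 difference −0.97, adjusted p = 0.284 by limma), and Ier5 lay the other way at 2.60 to 3.65 and 4.11 to 4.14 FPKM (log2 difference 0.33, adjusted p = 0.956). Fos ran from 2.71 to 6.49 FPKM with PBS and was 4.89, 0.519 and 1.2 FPKM with apoTf, so that apoTf replicate 1 lay within the PBS range. In the antioxidant list Txnrd1, a thioredoxin reductase gene, was at 31.0 to 34.7 and 24.9 to 27.1 FPKM (log2 difference −0.35, adjusted p = 0.347), 1 of 22 genes apart (4.55%). After median-ratio scaling 2 lay lower and 1 higher. Ddit3, a stress response factor gene, was at 17.9 to 21.5 and 21.5 to 27.05 FPKM (log2 difference 0.28, adjusted p = 0.972), and Egln1, an oxygen sensor gene, at 4.24 to 4.36 and 2.93 to 3.96 FPKM (log2 difference −0.30, adjusted p = 0.96). Mxd4, a MAX partner gene, was at 0.993 to 1.37 and 1.87 to 2.50 FPKM (log2 difference 0.65, adjusted p = 0.284). Among 14 heat shock genes 0 were apart (1 lower after median-ratio scaling), and 12 had negative log2 fold changes (3813 of 9410 over all genes). Their median of −0.06 ran from −0.19 to 0.09 with single libraries left out, so its sign rested on single libraries. In the interferon list 12 of 13 had positive log2 fold changes (5597 of 9410 over all genes), with 1 apart (0 after median-ratio scaling). The interferon median of 0.11 was below the SD of the list median between libraries of a group, 0.17. The lists of the ATF4 response (13 tested), the MYC network (9) and activin and TGF-beta signalling (10) each held 1 separated gene, higher. Those of hypoxia and glycolysis (17) and the cytoskeleton (18) each held 1, lower. After median-ratio scaling 2 genes of hypoxia and glycolysis and 3 of the cytoskeleton lay lower. The MYC network then held 1 higher, activin and TGF-beta signalling 1 in each direction, and the ATF4 response 0. Of 76 ribosomal protein genes tested, a family added after the values were seen, 9 were separated and higher (11.8%, against 6.7% of all genes) and 2 separated and lower (2.63%, against 2.87%), with a median log2 fold change of 0.11. The 9 became 15 after median-ratio scaling (5.36% over all genes). Without PBS replicate 2 they became 30 (39.5%, against 13.5% of all genes), and without apoTf replicate 3 they became 21 (27.6%, against 15.5%). Only reads aligning to a single place were kept, so ribosomal protein genes with near-identical copies lose reads. With PBS the group mean was 1.10 FPKM for Rps13 and 925 FPKM for Rpl8. The part of this loss in the counts was not tested. The family as counted includes Rpl7l1, Rpl22l1 and Rps27l.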

How the data were processed

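Polyadenylated RNA of sorted bone marrow Pro-E was sequenced. The authors aligned the reads to mm10 with STAR and kept those with a single place in the genome. They counted exonic reads on both strands with HOMER and deposited FPKM per library. The labels also name featureCounts and give no versions. The deposited table also holds the authors' log2 fold changes and adjusted p-values from edgeR, which were not used. Counts were not analysed here, so no count test was run. For the 3 apoTf and 3 PBS libraries of β-thalassemic mice, genes with at least 1 FPKM in at least 3 of the 6 libraries were fitted with limma 3.58.1 in R 4.3.3 (lmFit, eBayes with a trend) on log2(FPKM + 0.5), two-sided, adjusted by Benjamini-Hochberg over all genes tested. The genotype interaction used all 12 libraries. The spread between pools is what p-values measure. Groups of 3 and 3 allow no exact permutation p below 0.1, so single genes were tested with limma. The steps were tested on simulated data.

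Named genes are up to 15 per direction past the test with a mean of at least 2 FPKM and separated groups, filled up to 15 by smallest p among separated genes of at least 5 FPKM, up to 3 genes per list, and fixed genes. The members, lists and genes were chosen with earlier results of these data known. The histone and ribosomal protein families, the counts of separated genes without each library, and some gene names (Pim1, Cish, Jak2, Hmgcs1, Mvd, Socs2) were added after the values were seen. Alternatives were scaling by median ratios or by quantiles, pseudocounts of 0.1 and 1, a minimum of 5 FPKM or none, eBayes without the trend or robust, all 12 libraries, a replicate block, and each library left out. Results of 3 genes are not reported here, and the cholesterol list and the plots leave them out. Of 85 genes under the rule, 83 were placed with GENCODE vM21 on GRCm38.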

Additional observations from a re-analysis of the deposited data

How the results depend on the processing

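The count of 5 lower genes was 5 with pseudocounts of 0.1 and 1, 4 without the trend or with robust eBayes, 3 after quantile normalization, after median-ratio scaling, with all 12 libraries or with the filter of 5 FPKM, and 0 without a filter, where 16801 genes were tested. Leaving out single libraries gave 0 to 12 lower and 0 to 2 higher genes. Podxl was not past the test with robust eBayes (adjusted p = 0.0879 by limma) or without apoTf replicate 3 (0.0596). The count of genes that differ between genotypes was 1 without a filter and 0 to 1 with a library left out. Genes apart and lower numbered 563 after median-ratio scaling, 144 with the filter of 5 FPKM and 555 without a filter.

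Replicate numbers were checked as pairs: same-numbered libraries correlated at −0.21, 0.087 and −0.026 in their deviations from the group means. Libraries of different number correlated at −0.17 to 0.17. With 3 libraries per group, whose deviations sum to 0, these values cannot decide whether same-numbered libraries shared a preparation. With the replicate block 4 genes were lower, all among the 5 (Cda, Cpd, Podxl, Tnfrsf21). No higher gene was called with the block, and 0 genes differed between genotypes.

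With libraries left out, the list medians ranged from 0.08 to 0.17 for D cyclins and CDK inhibitors, −0.41 to −0.18 for the Epo response and −0.01 to 0.17 for the red cell membrane. Globin log2 fold changes lay near 0 and changed sign. Under quantile normalization they were −0.05 for Hba-a2, −0.04 for Hba-a1, −0.07 for Hbb-b1 and Hbb-b2, −0.08 for Hbb-bs and −0.10 for Hbb-bt, and under median-ratio scaling −0.01 for Hbb-b1 and Hbb-bs. With libraries left out they ranged from −0.00 to 0.43 for Hba-a1, −0.06 to 0.62 for Hbq1b, −0.20 to 0.33 for Hbb-b1 and Hbb-bs, −0.19 to 0.37 for Hbb-b2 and −0.19 to 0.38 for Hbb-bt, and Dnajb1 from −0.00 to 0.34. The cause was not tested.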
